A study of Mus musculus with 57 samples.

Results

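Kidneys of NZB/W mice that were 36 weeks old and nephritic, with proteinuria, were compared with kidneys of NZB/W mice that were 23 weeks old and not yet proteinuric. NZB/W mice develop lupus spontaneously, and the labels name no transgene, deletion, treatment or sex in either group. The comparison took all columns of these groups in the NZB/W table, 10 nephritic and 11 non-proteinuric samples, which is 21 of the 57 samples of the series. Each sample was total RNA from whole kidney hybridised to an Affymetrix array, and its level for each gene is a log2 value from RMA, the robust multi-array average that joins the background-corrected, normalized signals of a gene's probes into 1 number. The other NZB/W groups, 8 kidneys of 16-week prenephritic mice and 6 kidneys of 23-week mice at the onset of proteinuria, entered the same fit and are given where they place the 2 groups. One label field calls the 36-week kidneys prenephritic while the description calls them nephritic and proteinuric. The description was followed. The labels do not say that arrays of a group came from different mice, so the p-values reflect only how far these samples scatter, which may in part be technical. Age and disease state changed together between the 2 groups and cannot be told apart.

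Lupus nephritis begins when antibodies against nuclear antigens lodge in the glomerulus, where they fix complement and engage Fc receptors on myeloid cells. Plasma cells, which make those antibodies, can take up residence in the kidney itself, and type I interferon drives a characteristic set of antiviral genes in the disease. The proximal tubule, which makes up most of the renal cortex, depends on mitochondrial oxidation to reabsorb the filtered load and loses its transporters when it is injured.

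Of 16475 genes tested, 3791 (23.0%) differed between the 36-week nephritic and the 23-week non-proteinuric kidneys at an adjusted p under 0.05 (limma's moderated test, Benjamini-Hochberg adjustment over all genes). Genes past that threshold are said to have risen or fallen. In all, 1568 genes (9.52%) rose and 2223 (13.5%) fell. Changes of 2-fold or more lay mostly upward, with 180 genes (1.09%) rising and 54 (0.328%) falling that far. The lowest nephritic sample was above the highest 23-week sample in 100 genes (0.607%), and the reverse held in 44 genes (0.267%). The median change over all genes was -0.02 on the log2 scale. Nephritic kidneys varied more among themselves, with a larger standard deviation than the 23-week group in 81.3% of genes and a median standard deviation of 0.190 against 0.126.

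Several properties of the arrays moved with the groups. On 7 of the 11 non-proteinuric arrays, genes of the adrenal cortex were abundant, and these arrays are described with the genes they touch. Spiked hybridization controls averaged 9.90 ± 0.397 (SD, n = 10) on the nephritic and 9.57 ± 0.178 (SD, n = 11) on the 23-week arrays, a difference of 0.33 (exact two-sided permutation test, adjusted p = 0.0195 over 4 measures). The 3′ minus 5′ signal of Gapdh, a sign of RNA integrity, was 0.204 ± 0.192 on the nephritic and -0.0083 ± 0.0325 on the 23-week arrays (exact permutation test, adjusted p = 0.0033), and that of actin did not differ (adjusted p = 0.817). With the Gapdh measure as a covariate 1219 genes were called, and the part of these measures in the results was not tested. Sample titles carry a stem whose meaning is not given, with 7 stems among the nephritic and 3 among the 23-week samples and none in both groups. With the stem as a random block 1630 genes were called.

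**Figure D1:**
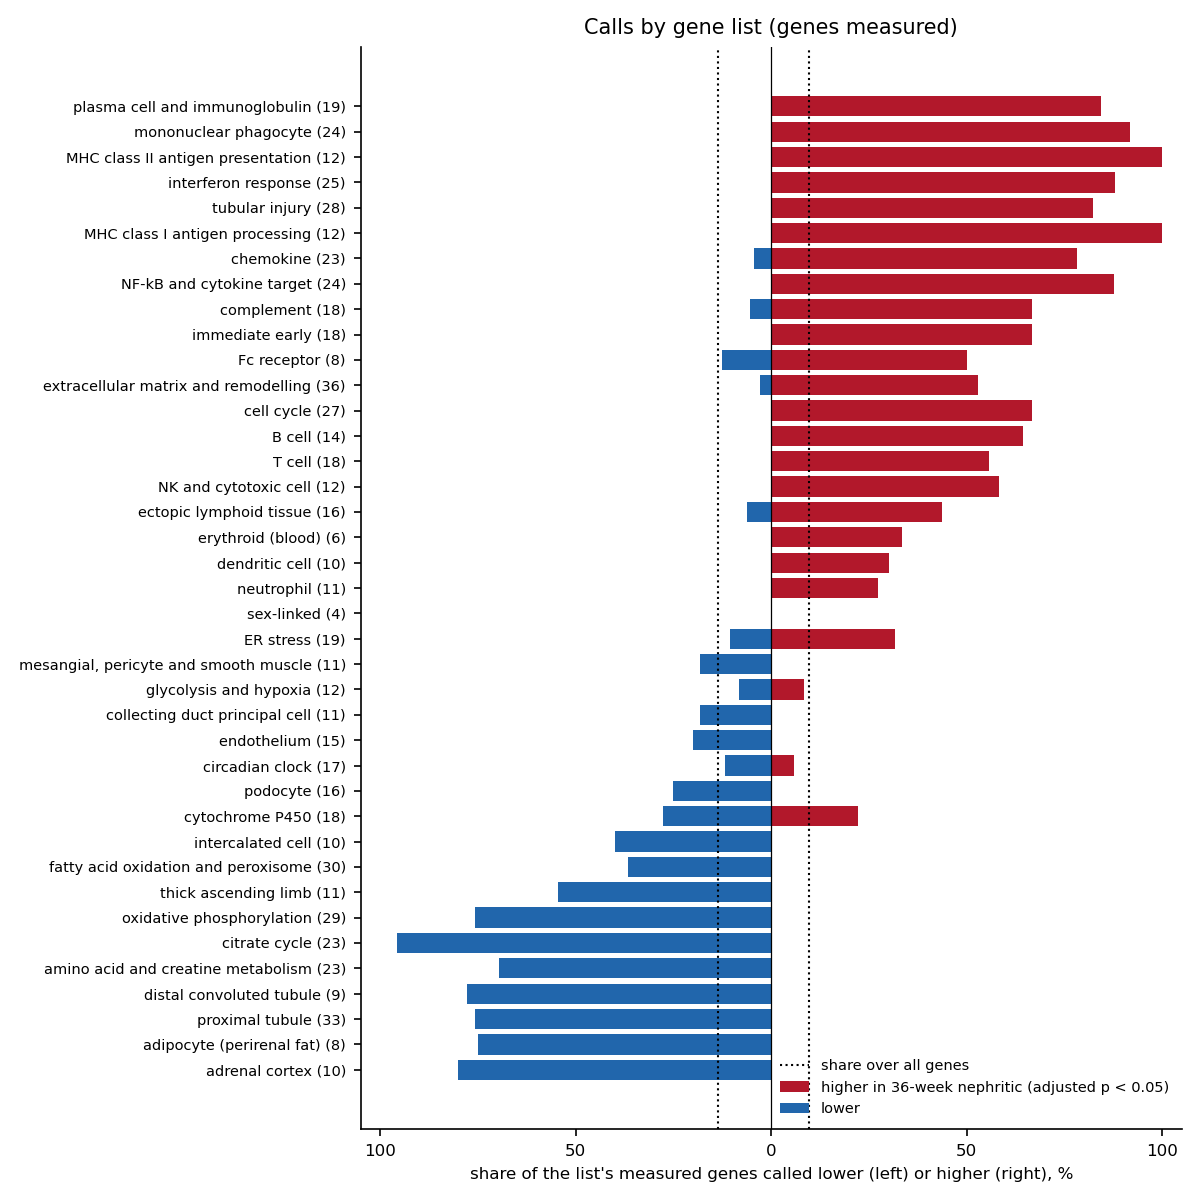
Share of the measured genes of 39 gene lists that rose (right, red) or fell (left, blue) in 36-week nephritic against 23-week non-proteinuric kidneys at an adjusted p under 0.05, in percent, ordered by the list's median change. Dotted lines mark the shares over all genes, 9.52% higher and 13.5% lower, and the numbers in brackets are genes measured.

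The single largest rise was that of Lcn2, which encodes lipocalin 2, an iron-siderophore binding protein released by injured tubule and by neutrophils. Its level spanned 6.995 to 12.07 (median 10.04) in the nephritic kidneys and 5.39 to 6.92 (median 6.14) at 23 weeks, so that no nephritic sample reached down to the 23-week range. The difference was 3.95 ± 0.45 (log2, SE of the fit), or 15.5-fold, with an adjusted p of 5.74e-07. In mice at proteinuria onset Lcn2 was already 2.25 above the same 23-week arrays (adjusted p = 0.0174), whereas it lay 0.09 above the 16-week arrays in the 23-week non-proteinuric group (adjusted p = 0.981).

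Other markers of injured or regenerating tubule rose with it. Of 28 measured genes on the tubular injury list 23 rose and none fell, with a median change of 0.84. Cd44, a hyaluronan receptor that marks regenerating epithelium and leukocytes, ran from 6.47 to 8.77 (median 7.53) in nephritic kidneys and from 5.46 to 6.55 (median 5.94) at 23 weeks, a rise of 1.59 ± 0.23 (adjusted p = 1.42e-05) with a slight overlap. The fibrinogen chains followed, Fgg by 1.48 ± 0.27 and Fga by 1.32 ± 0.29. Havcr1, which encodes the tubular injury molecule KIM-1, covered 8.72 to 11.51 (median 9.59) against 8.19 to 9.54 (median 8.87). Its rise of 1.002 ± 0.25 (adjusted p = 0.00363) left the groups overlapping. The list's count fell to 11 genes when the immediate early score described below was a covariate. Havcr1 and Fga did not pass in that fit (adjusted p = 0.14 and 0.0946). They also did not pass with the 23-week side restricted to the 4 arrays low in adrenal transcripts (adjusted p = 0.187 and 0.0971).

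Complement genes and marker genes of mononuclear phagocytes rose together. All 3 chains of C1q, the molecule that starts the classical complement pathway and is made by tissue macrophages, rose without overlap. C1qb stood at 9.21 to 12.29 (median 10.69) in nephritic kidneys and 7.42 to 8.90 (median 8.15) at 23 weeks, a difference of 2.43 ± 0.28 (5.40-fold, adjusted p = 5.74e-07). C1qc rose by 2.22 ± 0.25 and C1qa by 1.91 ± 0.21. C3, the convergence point of the complement pathways, rose by 1.64 ± 0.25 (adjusted p = 2.42e-05) with overlapping groups. On the complement list 12 of 18 genes rose and 1, Cd59a, which encodes a membrane inhibitor of the terminal pathway, fell.

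Of 24 mononuclear phagocyte markers 22 rose and none fell, with a median change of 1.07, and 7 separated the groups fully. In whole-kidney RNA, a change in the number of cells of a type and a change in RNA per cell cannot be told apart. Lyz2, the lysozyme of myeloid cells, ranged from 10.26 to 12.47 (median 11.33) in the nephritic and from 8.88 to 10.17 (median 9.50) in the 23-week kidneys and rose by 1.73 ± 0.23 (adjusted p = 3.15e-06). Among the largest rises of the whole comparison were Ms4a7 (2.22 ± 0.29), Ms4a6b (2.26 ± 0.28) and Ms4a6d (2.22 ± 0.34), tetraspan membrane proteins, of which Ms4a7 is typical of macrophages. Clec4a3, a C-type lectin of myeloid cells, rose by 2.38 ± 0.36, and its lowest nephritic value, 6.46, cleared the highest 23-week value, 6.07. Cd14, the lipopolysaccharide co-receptor, rose by 1.76 ± 0.25. The 2 markers of the list that did not pass were Cd163 and Gpnmb. With the 23-week side restricted to the 4 arrays low in adrenal transcripts, 15 of the 24 passed and the median was 0.98.

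Receptors for antibody on those cells rose unevenly. Fcgr4, which binds IgG2 subclasses, had levels of 7.004 to 9.86 (median 8.12) in nephritic kidneys and 6.36 to 6.84 (median 6.68) at 23 weeks, and rose by 1.66 ± 0.25. Fcgr3 rose by 1.73 ± 0.24, Fcer1g, the shared signalling chain of activating Fc receptors, by 1.06 ± 0.17, and Fcgr1, the high-affinity IgG receptor, by 0.61 ± 0.11. Of the 8 Fc receptor genes 4 rose, and the inhibitory receptor Fcgr2b was the 1 that fell. The neonatal receptor Fcgrt, the polymeric immunoglobulin receptor Pigr and Fcamr did not pass.

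**Figure D2:**
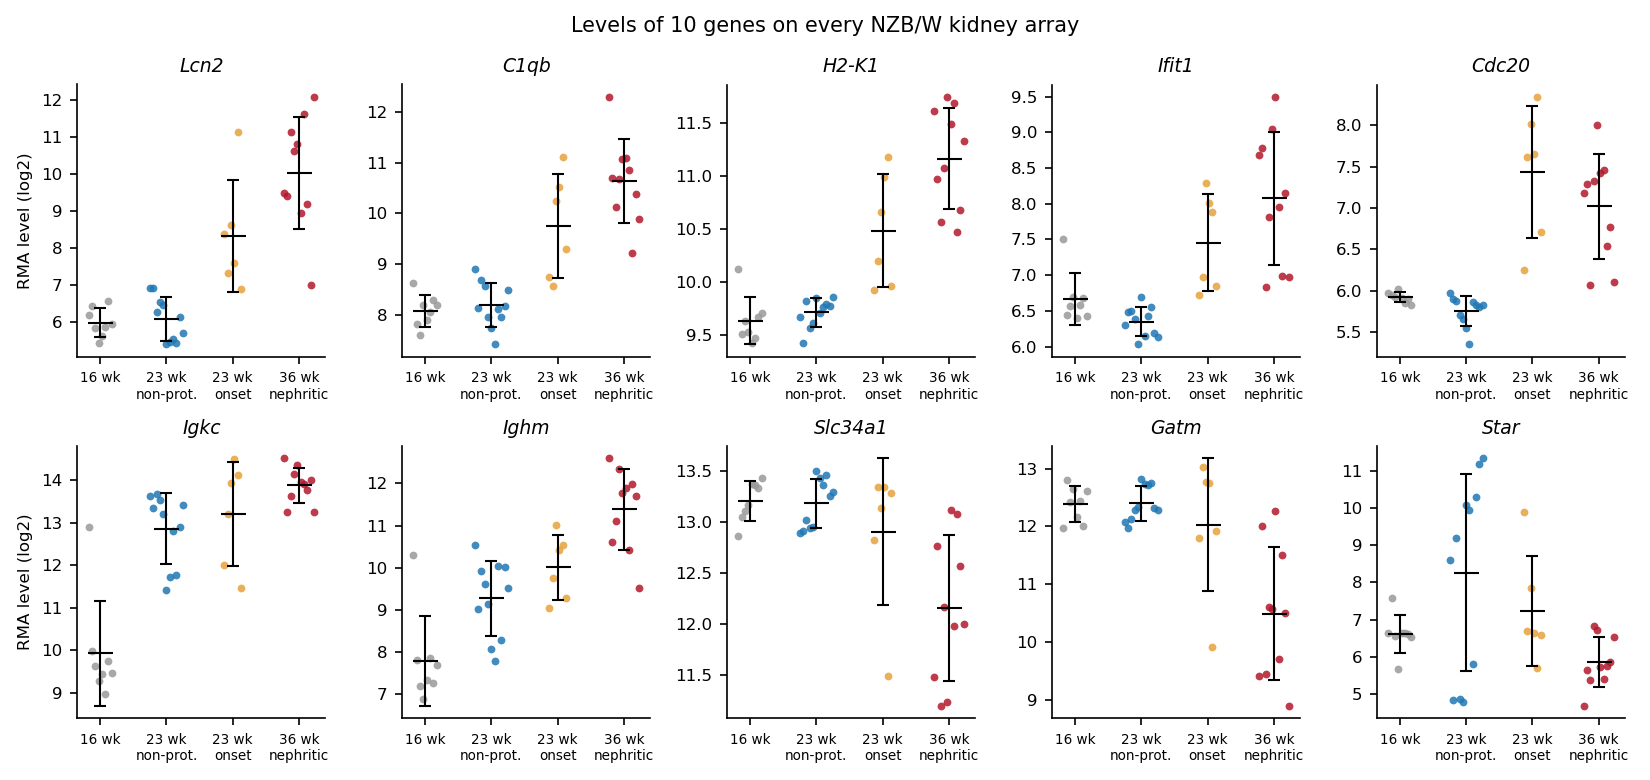
RMA level (log2, vertical axis) of 10 genes on every NZB/W kidney array in 4 groups: 16 weeks, 23 weeks non-proteinuric, 23 weeks at onset of proteinuria and 36 weeks nephritic. Points are arrays, and the bar gives mean ± SD. Lcn2, C1qb, H2-K1, Ifit1 and Cdc20 show no overlap between the nephritic and the 23-week non-proteinuric arrays, Igkc, Ighm and Slc34a1 overlap, and Star splits the 23-week non-proteinuric arrays into 7 high and 4 low.

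Of the antibody genes, 3 had already risen before 23 weeks. Between 16 and 23 weeks Igkc, Jchain and Igha passed the test out of 16475 genes (0.0182%), none fell (0.00%), and 963 genes had an unadjusted p under 0.05. That count depended on the fit, at 19 genes with only those 2 groups fitted and 3697 with array weights. Igkc, the kappa light chain constant region, went from 8.97 to 12.90 (median 9.55) at 16 weeks to 11.42 to 13.68 (median 13.20) at 23 weeks, a rise of 2.93 ± 0.41 (adjusted p = 0.00046). Its highest 16-week sample, at 12.90, stood far above the next, at 9.97. At 23 weeks 3 samples, replicates 6, 7 and 9, lay at or under 11.78 and the others at or above 12.81.

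From that raised baseline Igkc reached 13.26 to 14.52 (median 13.93) in the nephritic kidneys. The further difference of 1.03 ± 0.39 had an adjusted p of 0.0516 and did not pass. The call depended on the setting. It passed in 7 of 14 alternative fits, with the smallest adjusted p, 0.00982, when only the 2 groups were fitted, the others being array weights, quantile normalization, median centring, expressed genes only, the replicate block and the immediate early covariate. It also passed without nephritic replicate 2 or 10 and without 23-week replicate 1, 2, 3, 4 or 11. It was 0.46 (adjusted p = 0.620) with the Gapdh covariate. Jchain, which encodes the joining chain of polymeric IgA and IgM, rose by 2.34 ± 0.39 from 16 to 23 weeks (adjusted p = 0.00808) and by 1.37 ± 0.37 from 23 to 36 weeks (adjusted p = 0.00642). Igha, the IgA heavy chain, rose by 1.96 ± 0.35 in the first step (adjusted p = 0.0145) and by 1.34 ± 0.33 in the second (adjusted p = 0.00283). The second-step calls of Jchain and Igha were lost with the Gapdh covariate (adjusted p = 0.245 and 0.144). They were also lost with the mean of the adrenal cortex list as a covariate (0.11 and 0.0614) and on the restricted 23-week side (0.165 and 0.13). Both steps use the 23-week arrays, so they are set side by side without a test of their difference. On nephritic replicates 1, 4 and 5 Igkc was the highest of all genes, at 14.52, 14.15 and 14.37. Jchain and Igha reached 13.93 and 13.82 in the nephritic kidneys. Whether an upper limit of the arrays made the later step of these genes smaller was not tested.

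The IgM heavy chain and 3 of the 4 IgG heavy chains had the larger value in the later step. Ighm, the IgM heavy chain, lay at 9.51 to 12.60 (median 11.74) in nephritic kidneys against 7.79 to 10.55 (median 9.52) at 23 weeks, a rise of 2.12 ± 0.39 (adjusted p = 0.000178). The earlier difference, 1.48 ± 0.42, did not pass (moderated test, unadjusted p = 0.00109, adjusted p = 0.803). At 16 weeks Ighm spanned 6.88 to 10.30 (median 7.51), highest in replicate 1, which also had the highest Igkc. Ighg2b rose by 2.13 ± 0.41, Ighg3 by 2.03 ± 0.43, and Ighg1 by 1.46 ± 0.46, the last with an adjusted p of 0.0199 that became 0.0515 without nephritic replicate 5. The adjusted p of Ighg1 was 0.124 with the stem block, 0.563 with the Gapdh covariate and 0.217 on the restricted 23-week side. It was 0.183 with the mean of the adrenal cortex list as a covariate and 0.133 without nephritic replicates 1 and 5. Lambda light chains rose by 1.97 ± 0.44 (Iglc1) and 1.64 ± 0.38 (Iglc2). With the Gapdh covariate, and likewise on the restricted 23-week side, Ighg2b, Ighg3, Iglc1 and Iglc2 did not pass, while Ighm passed in every fit run. Variable-region genes were among the 12 largest rises, 3 of them at 2.27 to 2.66, among them Igkv6-15 at 2.36 ± 0.47 and Ighv1-14 at 2.27 ± 0.48. Igkv6-15 and Ighv1-14 did not pass with the Gapdh covariate, while the largest of the 3, at 2.66, passed in every fit run. Ighg2c, which is not flagged as expressed in the table, differed by 0.02 ± 0.07 (adjusted p = 0.882). Sequence shared between antibody genes was not tested for its part in these levels.

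**Figure D3:**
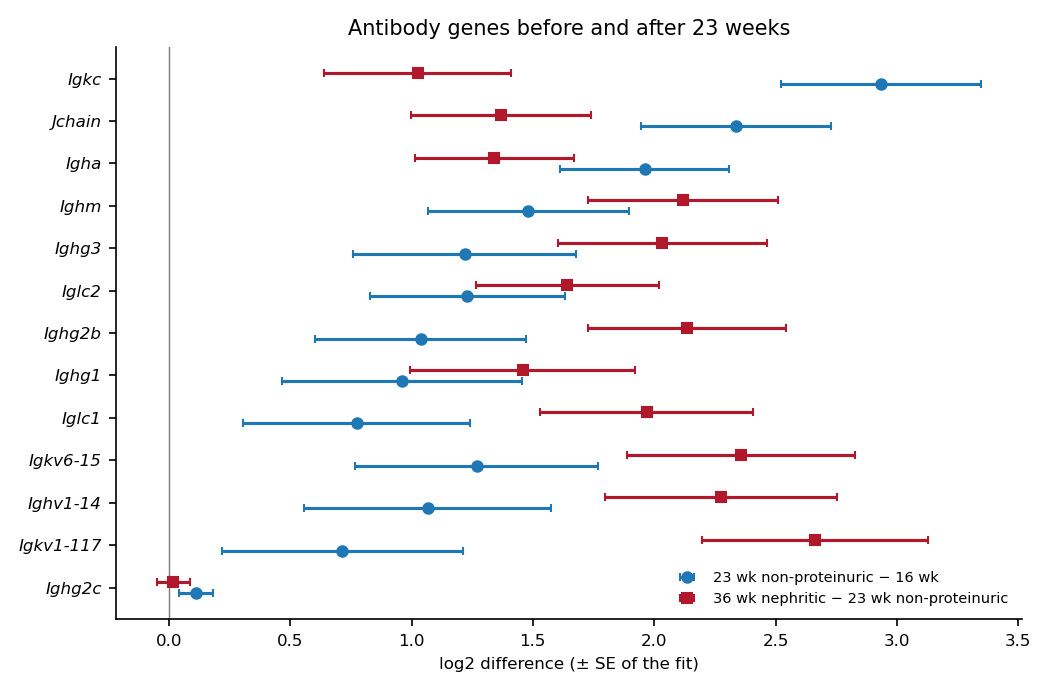
Differences (log2, ± SE of the fit) of 13 antibody genes from 16 to 23 weeks (blue circles) and from 23 weeks non-proteinuric to 36 weeks nephritic (red squares). Igkc, Jchain and Igha have the larger value in the earlier step, while Ighm and the variable-region genes have the larger value in the later one. Both steps share the 23-week arrays. Igkc, Jchain and Igha lie high on the nephritic arrays, and the part of an upper limit of the arrays in their later step was not tested.

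Over the plasma cell and immunoglobulin list 16 of 19 genes rose from 23 to 36 weeks and none fell, with a median of 1.27. Igkc, Ighg2c and Prdm1, the master regulator of plasma cells, were the 3 that did not pass. With the Gapdh measure as a covariate 3 genes of the list rose, and likewise 3 when the 23-week side was restricted to 4 arrays. B cell markers rose in 9 of 14, and in 5 without nephritic replicate 1, among them Cd72 by 1.73 ± 0.28, Cd79b, a chain of the B cell receptor, by 1.29 ± 0.26 and Ms4a1, which encodes CD20, by 0.98 ± 0.25. Of 18 T cell markers 10 rose, led by Cd3g at 1.14 ± 0.23 and Cd3d at 0.92 ± 0.17, whereas Cd4, Cd8a and Foxp3 did not pass. With the Gapdh covariate 1 T cell marker and 1 B cell marker rose, and on the restricted 23-week side no T cell marker and 1 B cell marker. The list of tertiary, or ectopic, lymphoid tissue had 7 of 16 genes risen. Cxcl13, the chemokine that draws B cells into follicles, covered 7.25 to 10.41 (median 8.80) in nephritic and 6.41 to 7.38 (median 6.78) in 23-week kidneys and rose by 1.93 ± 0.27 (adjusted p = 8.58e-06). Ltb, which encodes lymphotoxin beta, rose by 1.52 ± 0.27 and Tnfsf13b, the B cell survival factor BAFF, by 0.74 ± 0.16.

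Neutrophil markers rose in 3 of 11 cases and dendritic cell markers in 3 of 10. S100a9, a calcium-binding protein of neutrophils and monocytes, rose by 0.81 ± 0.22, and Itgax, which encodes CD11c, by 1.08 ± 0.22. Mpo, Elane, Camp and Ltf, granule genes of neutrophils, did not pass. Among cytotoxic cell markers 7 of 12 rose, including Nkg7 by 0.60 ± 0.16, a granule membrane protein, and Ccl5, a chemokine of T and NK cells, by 1.49 ± 0.25. The blood marker Alas2, the erythroid enzyme of haem synthesis, rose by 1.49 ± 0.39, and 2 of 6 erythroid genes rose in all. Its part in the immune lists was not tested. With the Gapdh covariate, and likewise on the restricted 23-week side, 1 cytotoxic, 1 dendritic cell and no neutrophil marker rose.

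Interferon-response genes rose in 22 of 25 cases, with none falling, a median of 0.87 and no overlap between groups in 8. Ifit1, an RNA-binding antiviral effector, ranged from 6.84 to 9.50 (median 8.05) in nephritic kidneys and from 6.03 to 6.69 (median 6.38) at 23 weeks. The rise was 1.72 ± 0.25 (3.30-fold, adjusted p = 1.42e-05). Ifi202b, a DNA-binding protein of the interferon-inducible p200 family that is long known as a candidate lupus gene in the NZB strain, rose by 2.20 ± 0.30 with no overlap, from 5.03 to 5.83 at 23 weeks to 6.14 to 9.46. Oasl2 rose by 1.48 ± 0.24 and Ifi204 by 1.36 ± 0.25. From 16 to 23 weeks none of the 25 passed, and the list's median was -0.01. With the restricted 23-week side 14 passed, at a median of 0.93.

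The promoters of 3 of these genes are shown because each holds more than 1 match to the core of the interferon-stimulated response element and its groups did not overlap. The sequences are RefSeq's, on the mouse build GRCm38.p6, from 250 bases before to 50 after the gene's start, written on the gene's strand. Capitals mark matches to GAAANNGAA, the letters searched on both strands. Ifit1 lies at chr19:34640639-34640938 on the plus strand, Bst2 at chr8:71537423-71537722 on the minus strand and Ifitm3 at chr7:141010695-141010994 on the minus strand.
Ifit1: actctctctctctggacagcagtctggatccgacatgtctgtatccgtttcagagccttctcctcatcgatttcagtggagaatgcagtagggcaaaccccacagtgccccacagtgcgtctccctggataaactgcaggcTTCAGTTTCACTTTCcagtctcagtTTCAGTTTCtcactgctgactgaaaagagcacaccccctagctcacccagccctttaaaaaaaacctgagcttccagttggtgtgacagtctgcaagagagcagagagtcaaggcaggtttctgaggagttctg
Bst2: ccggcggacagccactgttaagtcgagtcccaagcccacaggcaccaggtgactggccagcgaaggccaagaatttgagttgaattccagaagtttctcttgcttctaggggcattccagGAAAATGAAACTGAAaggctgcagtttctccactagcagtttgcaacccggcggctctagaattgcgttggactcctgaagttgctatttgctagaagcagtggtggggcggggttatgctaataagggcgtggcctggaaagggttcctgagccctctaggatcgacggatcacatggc
Ifitm3: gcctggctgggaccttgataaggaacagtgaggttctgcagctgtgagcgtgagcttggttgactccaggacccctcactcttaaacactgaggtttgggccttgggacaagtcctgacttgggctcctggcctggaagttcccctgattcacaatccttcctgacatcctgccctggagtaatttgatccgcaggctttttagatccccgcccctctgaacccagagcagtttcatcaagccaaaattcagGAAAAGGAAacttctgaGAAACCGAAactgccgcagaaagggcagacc
Matches in Ifit1 lie on the opposite strand and begin 109, 103 and 84 bases before the start, the first pair overlapping. In Bst2 the matches overlap and begin at positions -130 and -124, and in Ifitm3 they begin at 3 and 20. Bst2, which encodes the virus-tethering protein tetherin, rose by 1.10 ± 0.15, and Ifitm3, a membrane inhibitor of virus entry, by 1.01 ± 0.12. Among the 16 genes of the interferon list that RefSeq gives a promoter, 9 held the letters, against 1084 of 12800 genes (8.47%) over all. Of the 14 of those genes that rose, 7 held them. Matches to GGGANTTTC, letters of an NF-kB site, were found in 4 of 19 promoters of the NF-kB and cytokine target list against 163 genes (1.27%) over all, and matches to GTTAATNAT, letters of an HNF1 site, in 0 of 26 proximal tubule promoters against 84 genes (0.656%) over all. A match describes letters in a window and says nothing of a factor's binding.

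Antigen presentation rose without exception on both lists, 12 of 12 for class II and 12 of 12 for class I. H2-K1, a class I heavy chain, occupied a narrow band at 23 weeks, 9.43 to 9.86 (median 9.77), and 10.48 to 11.74 (median 11.20) in nephritic kidneys. It had the smallest adjusted p of any gene named here, 4.65e-07, at a rise of 1.45 ± 0.15. Psmb8, an immunoproteasome subunit, rose by 1.39 ± 0.20 with no overlap. Psmb9, another immunoproteasome subunit, rose by 1.34 ± 0.24. On the class II side Ctss, the cathepsin that trims the invariant chain, rose by 2.08 ± 0.24 with ranges of 11.001 to 13.41 against 9.30 to 10.64. Cd74, the invariant chain, rose by 1.23 ± 0.19, H2-DMb1, which loads peptide, by 1.58 ± 0.22, and H2-Ab1, a class II beta chain, by 1.07 ± 0.19. On the restricted 23-week side 5 class II genes and 11 class I genes rose. All 12 class I genes also rose with the stem as a block, with the Gapdh covariate and with the adrenal covariate.

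Chemokines rose in 18 of 23 cases and NF-kB and cytokine targets in 21 of 24. Ccl8, which attracts monocytes and T cells, spread from 6.97 to 11.35 (median 9.26) in nephritic kidneys against 6.55 to 8.003 (median 7.30) at 23 weeks and rose by 1.91 ± 0.40. Ccl12, a ligand of CCR2, rose by 1.52 ± 0.28. Cxcl12 fell, a call that was lost without 23-week replicate 6 or without nephritic replicate 5, 7 or 10. Socs3, a feedback inhibitor of cytokine signalling, rose by 2.02 ± 0.27, Nfkbiz, a nuclear NF-kB cofactor, by 1.29 ± 0.16, and the leukocyte adhesion molecules Icam1 and Vcam1 by 1.14 ± 0.14 and 1.17 ± 0.20. Serpina3g, a serine protease inhibitor of activated leukocytes, belonged to the 12 largest rises at 2.26 ± 0.30. On the restricted 23-week side 7 chemokines and 9 NF-kB and cytokine targets rose, and with the Gapdh covariate 11 and 17.

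Cell cycle genes rose in 18 of 27 cases with a median of 0.40. Cdc20, which switches on the complex that starts anaphase, had ranges of 6.06 to 8.01 (median 7.23) and 5.35 to 5.98 (median 5.82), which do not overlap, and rose by 1.26 ± 0.20 (adjusted p = 3.27e-05). Rrm2, a ribonucleotide reductase subunit, rose by 1.09 ± 0.18, also without overlap, and Mki67 by 1.15 ± 0.26. Against the same 23-week arrays, the kidneys at proteinuria onset had Cdc20 higher by 1.68 (adjusted p = 0.000116) and 15 of the 27 genes risen, when 345 genes (2.09%) were called over all and 281 (1.71%) rose. With the Gapdh covariate 6 of the 27 rose from 23 to 36 weeks, and on the restricted 23-week side 3. The onset and nephritic differences share their reference arrays and were not tested against each other.

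Matrix genes were mixed, with 19 of 36 risen, 1 fallen and a median of 0.48. Tgfbi, an extracellular protein induced by TGF-beta, rose by 1.60 ± 0.21 and separated the groups at 7.86 to 9.74 against 6.78 to 7.74. Timp1, a metalloproteinase inhibitor, rose by 1.24 ± 0.24. The fibrillar collagens Col1a1 and Col3a1 rose by 1.12 ± 0.31 and 1.05 ± 0.31. Timp3 fell, while Acta2, the smooth muscle actin of myofibroblasts, and Postn did not pass. With the immediate early covariate 5 of the 36 rose, and with the stem block 7.

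Markers of the proximal tubule fell in 25 of 33 cases and rose in none, with a median of -0.63. Slc34a1, the main apical phosphate transporter, ran from 11.20 to 13.12 (median 12.08) in nephritic and from 12.89 to 13.51 (median 13.26) in 23-week kidneys. It fell by 1.03 ± 0.21 on the log2 scale (adjusted p = 0.000617), and some nephritic samples stayed within the 23-week range. Slc34a3, a second phosphate transporter, fell by 1.32 ± 0.24, Slc5a2, the glucose transporter SGLT2, fell by 1.26 ± 0.20 and Slc6a19, a neutral amino acid transporter, fell by 1.19 ± 0.30. With the 23-week side restricted to the 4 arrays low in adrenal transcripts, 3 markers passed while the median was -0.60, and 4 passed with the Gapdh covariate.

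Amino acid and creatine metabolism, a cortical tubule function, had 16 of 23 genes lower and a median of -0.54. Gatm, which catalyses the first step of creatine synthesis, dropped from 11.97 to 12.82 (median 12.32) at 23 weeks to 8.90 to 12.27 (median 10.54). Its change of -1.91 ± 0.33 (adjusted p = 0.000102) was among the 12 largest falls, and it stayed past the threshold under each alternative fit run and each array left out in turn. Bhmt, which remethylates homocysteine, fell by 1.46 ± 0.34. Kynu, kynureninase, fell by 0.91 ± 0.17 with no overlap. With the Gapdh covariate 3 genes of the list fell, and likewise 3 on the restricted 23-week side.

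Mitochondrial genes fell by less but broadly. Of 23 citrate cycle genes 22 fell, the exception being Idh1, with a median of -0.44, and of 29 oxidative phosphorylation genes 22 fell, with a median of -0.36 and none risen. Idh3a, a catalytic subunit of NAD-dependent isocitrate dehydrogenase, was the 1 citrate cycle gene without overlap, at 8.79 to 9.46 against 9.64 to 9.96, and fell by 0.61 ± 0.09 (adjusted p = 1.28e-05). Ndufs1, a subunit of complex I, fell by 0.51 ± 0.12 and Cox15, which makes the haem of cytochrome oxidase, fell by 0.58 ± 0.10. The coactivators that direct mitochondrial biogenesis were lower too. Ppargc1a covered 8.06 to 10.11 (median 9.04) in nephritic against 9.87 to 10.43 (median 10.27) in 23-week kidneys and fell by 1.19 ± 0.18 (adjusted p = 1.69e-05), and Ppargc1b fell by 0.68 ± 0.09. Fatty acid oxidation genes fell in 11 of 30 cases, among them Echs1 by 0.70 ± 0.15 and Acaa2 by 0.71 ± 0.17, both enzymes of beta-oxidation. Neither Echs1 nor Acaa2 passed with the Gapdh covariate (adjusted p = 0.173 and 0.166) or on the restricted 23-week side (0.113 and 0.142). Acaa2 was also lost with the stem block and with the adrenal or immediate early covariate. With the restricted 23-week side 1 citrate cycle gene and no oxidative phosphorylation gene passed, at medians of -0.29 and -0.22. With the Gapdh covariate the counts were 3 and 1.

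Later segments of the nephron fell in part. Of 9 distal convoluted tubule markers 7 fell, with Pvalb, the calcium buffer parvalbumin, at -1.71 ± 0.39, Calb1, calbindin, at -1.14 ± 0.23, Slc8a1, the sodium-calcium exchanger, at -0.996 ± 0.14 and Slc12a3, the thiazide-sensitive cotransporter, at -0.73 ± 0.14. On the restricted 23-week side Pvalb, Calb1 and Slc12a3 did not pass (adjusted p = 0.107, 0.124 and 0.0657). Pvalb was also lost with the immediate early covariate (0.194), while Slc8a1 passed in every fit run. In the thick ascending limb 6 of 11 fell, including Egf by 1.05 ± 0.26, and none fell with the Gapdh covariate. Umod, which encodes uromodulin and is that segment's hallmark product, lay at 13.03 to 13.78 (median 13.49) against 13.32 to 13.74 (median 13.51), a difference of -0.13 ± 0.07 that did not pass (adjusted p = 0.253), became 0.01 after quantile normalization and passed with the hybridization covariate (adjusted p = 0.0158). Collecting duct markers gave 2 falls in 11 for principal and 4 in 10 for intercalated cells, set against the 13.5% of all genes that fell. Among the principal cell genes Aqp4, a basolateral water channel, fell by 1.66 ± 0.29, whereas Aqp2 did not pass.

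Of 16 podocyte markers 4 fell and none rose, with a median of -0.12, where 13.5% of all genes fell. Magi2, a scaffold protein, fell by 0.45 ± 0.13, while Nphs1, which encodes nephrin, spanned 6.09 to 7.22 (median 6.80) against 6.79 to 7.43 (median 7.07), a difference of -0.33 ± 0.13 with an adjusted p of 0.0607. That gene passed after quantile normalization and without nephritic replicate 4, 6 or 8 or without 23-week replicate 2. With the stem block, with the Gapdh covariate and with the immediate early covariate no podocyte gene was called lower. Endothelial markers fell in 3 of 15, Kdr, a VEGF receptor, by 0.34 ± 0.08, and mesangial and smooth muscle markers in 2 of 11, with Myh11 at -0.63 ± 0.11. Both counts are near the 13.5% of all genes that fell. Vegfa, a growth factor that podocytes and tubules supply to endothelium, fell by 0.69 ± 0.11, from 8.87 to 9.28 at 23 weeks to 7.90 to 8.95.

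Cytochrome P450 genes divided, with 4 risen and 5 fallen of 18. Cyp2d26 fell by 1.14 ± 0.27 and Cyp2d12 by 0.79 ± 0.22, whereas Cyp2d9 rose by 1.31 ± 0.28 and Cyp4a12a by 0.99 ± 0.24. The last pair are known as male-predominant genes of the mouse. Xist, the transcript of the inactive X chromosome, ranged from 10.17 to 11.02 in nephritic and 9.84 to 10.89 in 23-week kidneys (adjusted p = 0.0919), passing only without 23-week replicate 4 or nephritic replicate 10 among the fits that left out 1 array, and the Y-linked genes Ddx3y, Eif2s3y and Uty did not pass. Whether probes of the Cyp2d genes also bind their family members was not tested. On the restricted 23-week side Cyp2d26, Cyp2d12, Cyp2d9 and Cyp4a12a did not pass. With the immediate early covariate Cyp2d26, Cyp2d12 and Cyp4a12a did not pass, and with the adrenal covariate Cyp2d26 and Cyp2d12 did not. Cyp2d26 was also lost with the Gapdh covariate and Cyp2d12 with the stem block. Stress of the endoplasmic reticulum gave 6 rises and 2 falls of 19, with Atf3, a stress-induced transcription factor, at 0.83 ± 0.13 and Canx, the chaperone calnexin, at -0.32 ± 0.08. Over all genes 9.52% rose and 13.5% fell. Xbp1, the unfolded protein response factor that plasma cells need, rose by 0.35 ± 0.10, while Hspa5 did not pass. Atf3 passed in every fit run. Canx did not pass after quantile normalization, with the Gapdh or adrenal covariate or on the restricted 23-week side. Xbp1 did not pass with the stem block, on the restricted 23-week side, or with the Gapdh, adrenal or immediate early covariate.

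**Figure D4:**
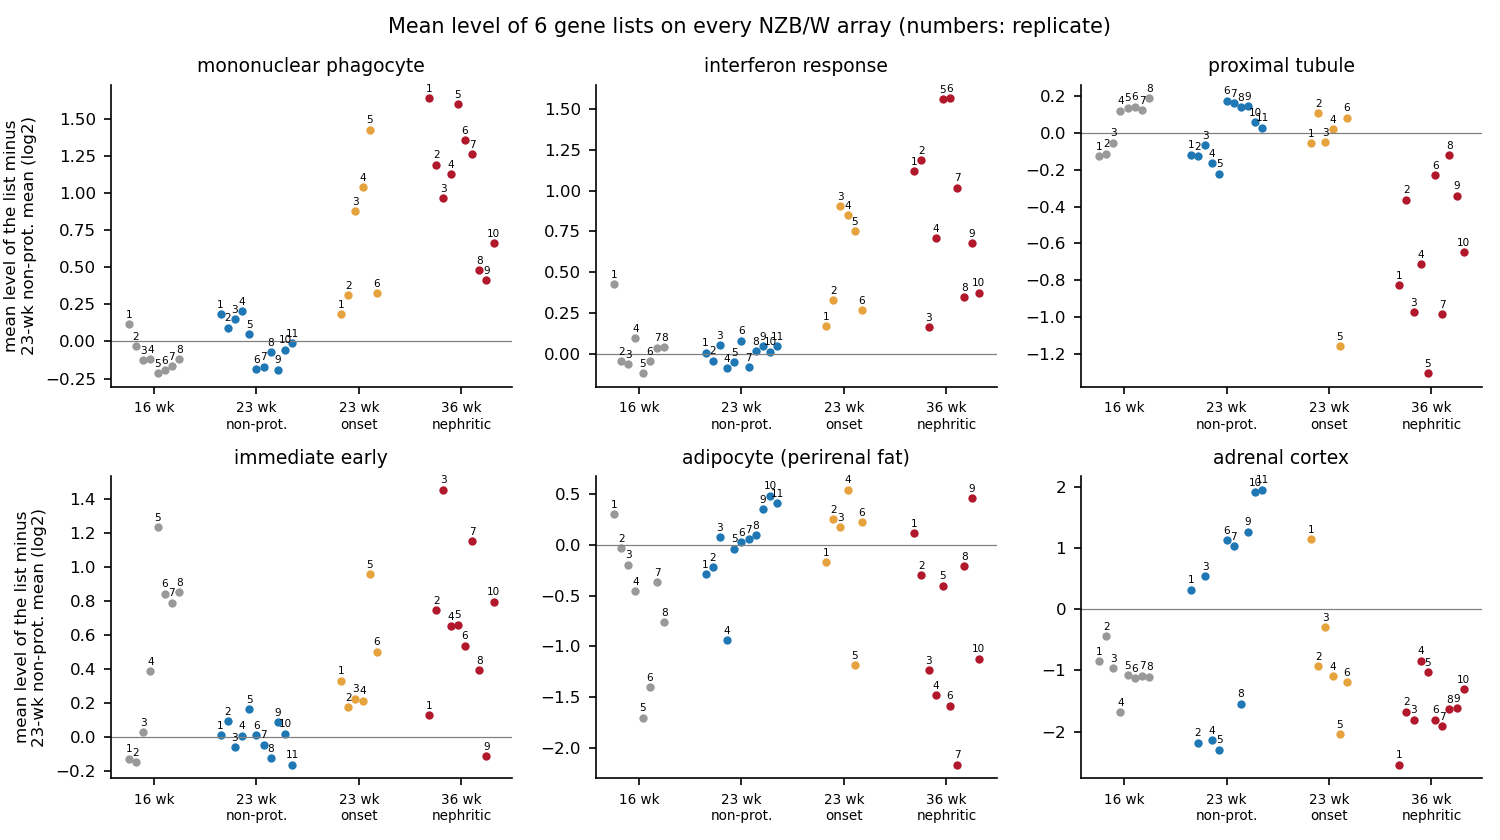
Mean level of 6 gene lists on each NZB/W array minus its mean over the 23-week non-proteinuric arrays (log2, vertical axis), by group, with replicate numbers beside the points. Phagocyte and interferon lists lie higher and the proximal tubule list lower on the nephritic arrays, and the adrenal cortex list is at 0.32 or above on 7 of the 11 non-proteinuric arrays and at -1.54 or below on the other 4.

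Most of the largest falls on the log2 scale were of adrenal genes. Of the 12 largest, 6 belonged to the adrenal cortex list, with Star, which carries cholesterol into mitochondria, Cyp11a1, Cyp11b1, Cyp21a1 and Hsd3b1, enzymes of steroid synthesis, and Akr1b7, an adrenal aldo-keto reductase. Chgb and Scg2, granins of adrenal medulla and other endocrine cells, were 2 more. Star lay at 4.69 to 6.83 in all nephritic kidneys and at 4.79 to 11.33 (median 9.18) at 23 weeks, a difference of -2.41 ± 0.69 (adjusted p = 0.0106). Within the 23-week group it split, at 8.60 to 11.33 in replicates 1, 3, 6, 7, 9, 10 and 11 and at 4.79 to 5.82 in replicates 2, 4, 5 and 8, the latter overlapping the nephritic range. Chgb split the same arrays, at 8.32 to 11.07 and 3.60 to 5.202. Against those 4 arrays alone Star was 0.77 higher and Chgb 1.003 higher in the nephritic kidneys, and no gene of the adrenal list fell. Those arrays were chosen by the mean of that list, which holds Star, so the loss of its falls follows from the choice. On the kidney side, Slc34a1 covered 12.89 to 13.51 (median 13.30) in the 7 arrays and 12.91 to 13.36 (median 12.95) in the 4. Lcn2 covered 5.39 to 6.90 (median 5.68) in the 7 and 5.54 to 6.92 (median 6.49) in the 4. For Igkc the ranges were 11.42 to 13.68 (median 12.90) and 12.81 to 13.55 (median 13.28). The arrays low in Igkc, replicates 6, 7 and 9, were all among the 7, so the restricted 23-week side leaves them out too.

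Fat genes moved in the same direction. Of 8 adipocyte markers 6 fell, with Adipoq, the hormone adiponectin, at -1.86 ± 0.54 and Retn, resistin, at -0.66 ± 0.19, and Car3, a carbonic anhydrase abundant in fat and muscle, fell by 2.19 ± 0.40. Adipoq ranged over 5.55 to 10.95 among the nephritic arrays. None of the 6 passed with the stem block, with the adrenal covariate or on the restricted 23-week side.

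Immediate early genes, which respond within minutes to handling and signalling alike, rose in 12 of 18 cases. Fos spanned 6.17 to 10.32 (median 7.69) in nephritic and 5.68 to 6.58 (median 6.18) in 23-week kidneys, a rise of 1.69 ± 0.45 (adjusted p = 0.00531), and Egr1 rose by 1.60 ± 0.47. From 16 to 23 weeks Fos differed by -1.89 (moderated test, unadjusted p = 0.000331, adjusted p = 0.42). Egr1 differed by -1.69 in that step (unadjusted p = 0.0018, adjusted p = 0.82), and neither passed. Against the 16-week arrays, nephritic Fos differed by -0.20 (adjusted p = 0.81) and Egr1 by -0.09 (adjusted p = 0.92). The later rises of Fos and Egr1 did not pass with the adrenal covariate or on the restricted 23-week side. Egr1 was also lost with the stem block. Klf6 rose by 1.23 ± 0.18 without overlap. Of 17 clock genes, whose levels follow the hour of sampling, 1 rose and 2 fell, which is near the 23.0% of all genes called.

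Among the 10 nephritic kidneys, 6 genes were set against Lcn2 to see which varied with it. Ndufs1 was lower where Lcn2 was higher, with Pearson's r = -0.797 (two-sided permutation p = 0.00564, adjusted 0.0338 over 6 relations) and Spearman's rho = -0.782 (permutation p = 0.0109, adjusted 0.0656). Without replicates 9 and 10, the 2 samples farthest from the median of Lcn2, r was -0.881. Slc34a1 gave r = -0.562 (permutation p = 0.0904, adjusted 0.271) and rho = -0.697 (permutation p = 0.0293, adjusted 0.0878), and r was -0.690 without those samples. Igkc (r = -0.223, adjusted permutation p = 0.840), C1qb (r = -0.0750, 0.840), Col3a1 (r = 0.0784, 0.840) and Cdc20 (r = -0.0927, 0.840) showed no relation past the threshold, and with Spearman's rho their adjusted permutation p was 0.917 each. The 7 title stems hold too few nephritic samples for a value within a stem.

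**Figure D5:**
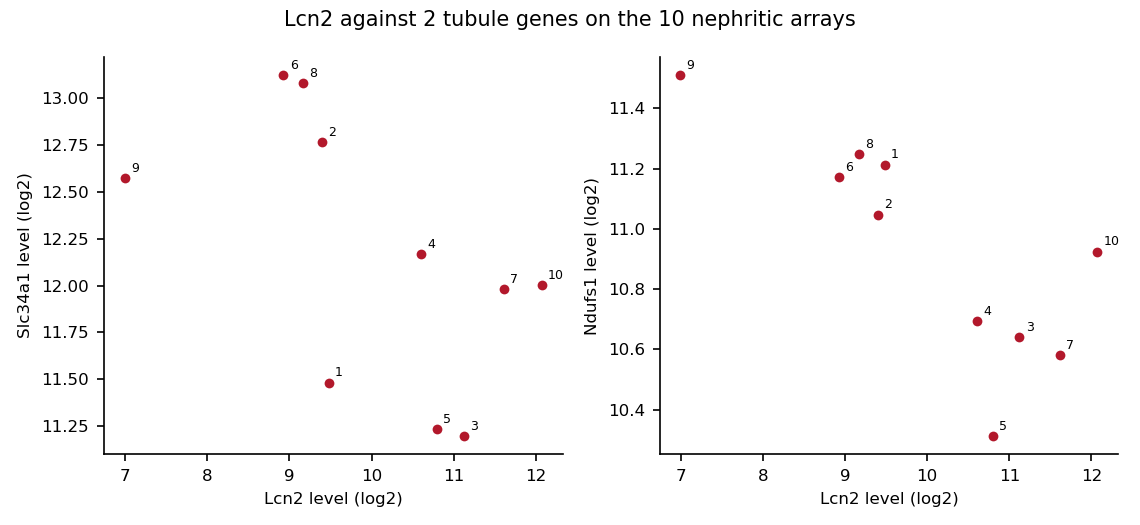
Level of Slc34a1 (left) and Ndufs1 (right) against the level of Lcn2 (all log2) on the 10 nephritic arrays, numbered by replicate. Ndufs1 is lower where Lcn2 is higher, with r = -0.797, and Slc34a1, with r = -0.562, did not pass the test.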

How the data were processed

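Per the labels' protocols, total RNA of whole kidney was isolated with Trizol, labelled as cRNA and hybridised to Affymetrix arrays. The deposited NZB/W table holds log2 levels, which the submitters' processing notes link to RMA. The array type, probe definitions and genome build are not given in the sources used here. Gene symbols were updated through RefSeq by gene ID (16229 of 16475 genes matched). From there, 64 array controls were set aside and 1 limma 3.58.1 model (R 4.3.3) with 4 group means was fitted to all 35 NZB/W arrays. The p-values were Benjamini-Hochberg adjusted over all genes, and 21 arrays entered the main contrast. Other tests were permutation tests (scipy). No 2 arrays held identical values (correlations 0.938 to 0.998). The number of arrays limits the precision. Named genes are the 12 largest rises and falls, up to 4 called members of each of 39 lists (or its smallest-p member), the antibody constant regions, fixed markers and the genes set against Lcn2. Genes outside this rule (Bst2, Ifitm3 and members named only for passing or not) were picked after their values were seen. The members and lists were chosen with earlier results of these data known. The fit was tested on simulated data. Alternatives covered normalization, weights, blocks, covariates and left-out arrays. Motif letters were shortened after a search with longer forms had been seen. Those forms, with 1, 1 and 3 more bases, were held by 8 of 16 interferon list promoters (453 genes, 3.54%, over all), 4 of 19 NF-kB list promoters (72 genes, 0.562%) and 0 of 26 proximal tubule promoters (10 genes, 0.0781%). The 3 promoters printed were chosen after their matches and values were seen. Some named genes are not reported here.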

Additional observations from a re-analysis of the deposited data

Results flagged for a closer look

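In 163 checks of the 10 nephritic arrays, covering the named genes and 4 array controls, 3 values lay apart from the rest of their group by Dixon's criterion, and chance flags about 1 group in 20. Spiked hybridization controls reached 10.88 in nephritic replicate 1, against 10.01 in the next highest array. Cyp11a1, a steroid enzyme of the adrenal, was lowest in the same replicate, at 3.83, with the next lowest array at 5.09. Ighg2c was highest in replicate 5, at 5.33, against 4.93 in the next. Without replicates 1 and 5, which also had the lowest correlation with the other arrays, 2858 genes were called.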

How the results depend on the processing

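Of the 154 named genes that passed, 59 passed in every fit run, 142 kept their call whichever of the 21 arrays was left out, and 154 kept it with the replicate block, which moved the count of calls to 3749. Replicate numbers do not pair the samples, since the correlations of 10 number-matched pairs ran from -0.11 to 0.39 and 1 sample correlated best with its own number. Leaving out 1 array gave 3226 to 4160 called genes (1436 to 1689 higher, 1765 to 2471 lower, 155 to 203 higher and 36 to 74 lower by 2-fold), and 2 to 5 between 16 and 23 weeks, the 5 without 16-week replicate 3. The main counts (3791 called, 1568 higher, 2223 lower, 180 and 54 by 2-fold) became 1630, 784 and 846 when the stem of the title was a random block (34 lower by 2-fold, consensus correlation 0.386), 1219, 721 and 498 with the Gapdh covariate (98 and 24 by 2-fold), and 97 lower by 2-fold with the hybridization covariate. Settings added after seeing the data gave 1765, 867 and 898 with the adrenal covariate (17 lower by 2-fold), 850, 512 and 338 with only the 4 23-week arrays low in adrenal transcripts (13), and 1956, 892 and 1064 with the immediate early covariate (15). The second of these settings also has fewer 23-week arrays. The part of that in its lower count was not tested, nor was the cause of the other changes. Between 16 and 23 weeks 19 genes passed with only those groups fitted and 3697 with array weights, where the main fit had 3. For onset against 23 weeks the 345 became 1141 with the 2 groups alone, 2167 with weights and 114 with the replicate block. After quantile normalization 103 genes lay above and 65 below without overlap, in place of 100 and 44. Signs turned for Fos (-0.0157), Egr1 (-0.23) and Jun (-0.12) with the immediate early covariate, for Umod (0.0111) after quantile normalization, and for Ighg2c with the Gapdh covariate (-0.021), the restricted 23-week side (-0.0185) and without replicates 1 and 5 (-0.0234). With 1 array left out Ighg2c ran from -0.0427, without nephritic replicate 5, to 0.0442. The immediate early and adrenal scores are means over lists that hold some of these genes, and the restricted side was chosen by the adrenal score, so a loss of those lists' genes there follows from how the settings were built. With the adrenal covariate Scg2 (0.0774), Cyp11a1 (0.0682), Cyp11b1 (0.041), Hsd3b1 (0.0716), Cyp21a1 (0.154), Star (0.0374) and Chgb (0.115) turned, and on the restricted side Scg2 (0.65), Akr1b7 (0.50), Cyp11a1 (0.79), Cyp11b1 (0.65), Hsd3b1 (0.65), Cyp21a1 (0.86), Star (0.77) and Chgb (1.003). Without the 2 arrays farthest from the median of Lcn2, r turned to 0.102 for Igkc and 0.0406 for Cdc20.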

Other observations

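The genes with the widest spread among the nephritic kidneys, listed after their values were seen, were not confined to the immune and tubule lists. Ucp1, the uncoupling protein of brown fat, had the largest standard deviation, 1.87, and spanned 5.72 to 10.08 in nephritic and 6.19 to 10.09 in 23-week kidneys, with a difference of -0.73 that did not pass (adjusted p = 0.436). Adipoq followed at a standard deviation of 1.70. Alas2, of red cells, reached 10.83 in the highest nephritic kidney against a median of 8.19. Serpina1a, an alpha-1 antitrypsin gene, ran from 4.35 to 9.31 with a median of 5.26 and did not pass (adjusted p = 0.0885). Ubd, an interferon-induced ubiquitin-like modifier, covered 5.52 to 9.47 in nephritic and 4.95 to 5.82 in 23-week kidneys and rose by 1.90 ± 0.31 (adjusted p = 3.85e-05). Ms4a4b, a membrane protein of T cells, spread from 5.40 to 10.17 against 5.43 to 7.04 and rose by 1.77 ± 0.42 (adjusted p = 0.00214).

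Immediate early genes differed within the 16-week group as well, where the list's mean was high in replicates 4 to 8 and near the 23-week level in replicates 1 to 3. One onset kidney, replicate 5, had the lowest proximal tubule mean of its group and the highest phagocyte mean.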
